A study of Rattus norvegicus with 83 samples.

Results

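The 32 genes described here make cholesterol, take it into the cell or sense its level, and they were found in the deposited count table by their gene symbols, 32 of 17483 symbols in all. By role, 8 encode enzymes of the mevalonate pathway, 11 encode enzymes from squalene to cholesterol and 5 encode the sterol control system. The other 8 handle cholesterol, from its uptake into the cell to its storage, release and efflux. Offspring of Sprague-Dawley (Crl:CD(SD)) rat dams were studied after the dams had received a compound by oral gavage once a day. Both compounds, methimazole (MMI) and amitrole (Ami), are known to block thyroid hormone synthesis. RNA was profiled by BRB-seq, a bulk method that tags each sample's RNA with a barcode and counts the 3′ ends of transcripts. Dosing began on gestation day (GD) 7 and ended on pup day (PD) 22 according to the treatment protocol, whereas another description in the labels puts its end at PD16. Birth was expected on GD23.

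The 83 libraries fell into 10 groups. At PD16 there were 11 libraries of Ami at 25 mg per kg of body weight per day (Ami25), 12 of Ami at 50 mg (Ami50), 10 of MMI at 8 mg (MMI8), 10 of MMI at 16 mg (MMI16) and 10 of the corn oil vehicle. At GD21 each of the same 5 treatments had 6 libraries. Which libraries came from the same litter or animal is not given in the labels, so the p-values measure only the spread between these samples. Total counts ran from 202270 to 1186973 per library at PD16 (median 492083, where 1 count was worth 2.03 CPM, counts per 1000000 counts of the library) and from 495369 to 1627114 at GD21 (median 963356, 1.04 CPM). A count of 0 allows up to 3 counts, between 2.53 and 14.8 CPM depending on the PD16 library, and this limit covers counting error only.

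The labels name the tissue as testis, and the markers went against that. A list of 10 testis markers held 148 of 57573311 counts over all libraries, with the Sertoli cell factor Dmrt1 at 0. A list of 6 adrenal cortex markers summed to between 8298 and 60230 CPM in each library, and adrenal medulla markers to between 667.1 and 2108 CPM. The stage labels were also at odds with the globins. The embryonic globins, which red cells make in the embryo, took 14.8 ± 2.51% of all globin counts in vehicle libraries labelled PD16 (SD, n = 10). The group means at GD21 lay between 0.0983 and 0.275%. The groups are therefore named below by their labels only. In 8 of the 12 Ami50 libraries at PD16 the Y-linked gene Eif2s3y was under 10 CPM, which no other library showed, and 15 libraries held Alb, a liver gene, at 200 CPM or more.

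Cells build cholesterol from acetyl-CoA. The mevalonate pathway makes isoprenoid units and joins them to farnesyl diphosphate, and later enzymes turn squalene into lanosterol and then cholesterol. When sterols are low in the endoplasmic reticulum, the escort protein SCAP carries the transcription factor SREBP2, the product of Srebf2, to the Golgi to be cut and released, and INSIG proteins hold the pair back when sterols are high. Cells that make steroid hormones also take cholesteryl ester from high-density lipoprotein through the receptor SR-BI, the product of Scarb1.

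Promoters were at hand for 26 of the 32 genes in a RefSeq table of build GRCr8, each running from 250 bases before the annotated start to 50 bases after it. Pmvk, Fdft1, Sqle, Scarb1, Stard4 and Lipe had no entry. The box CCAAT, bound by the factor NF-Y, was present on either strand in 20 of the 26 promoters (76.9%), compared with 37.7% of all 27457 promoters in the table. The core of the sterol regulatory element, TCACNCCAC, was in none of the 26 and in 1.13% of all promoters. A looser form, CACNCNAC, which lies within those letters, was in 6 of the 26 (23.1%: Acat2, Hmgcs1, Hsd17b7, Ebp, Scap and Insig1) and in 11.8% of all. These matches describe the letters in a short window and identify no binding site. Nor does a missing match show that a gene lacks a site, since only these letters and this window were searched. The 2 promoters below belong to Srebf2, the control gene whose RNA differed most between the groups, and Idi1, the mevalonate gene with the largest change under Ami50. Capitals mark CCAAT or its reverse complement ATTGG.
Srebf2 (chr7:115543057-115543356, plus strand): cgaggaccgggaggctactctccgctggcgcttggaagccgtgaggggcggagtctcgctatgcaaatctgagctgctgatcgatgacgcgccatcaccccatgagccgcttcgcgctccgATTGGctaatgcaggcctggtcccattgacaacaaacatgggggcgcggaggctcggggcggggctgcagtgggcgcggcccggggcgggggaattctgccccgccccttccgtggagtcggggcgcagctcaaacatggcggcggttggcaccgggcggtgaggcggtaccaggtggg
Idi1 (chr17:66547475-66547774, minus strand): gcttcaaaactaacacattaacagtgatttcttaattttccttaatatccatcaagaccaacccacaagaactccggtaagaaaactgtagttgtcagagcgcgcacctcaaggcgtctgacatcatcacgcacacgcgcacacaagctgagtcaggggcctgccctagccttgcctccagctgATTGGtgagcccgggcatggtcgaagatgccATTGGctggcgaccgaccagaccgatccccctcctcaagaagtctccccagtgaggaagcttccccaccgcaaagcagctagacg
The first match lies at -129 relative to the annotated start in Srebf2 and at -66 in Idi1, which holds 2.

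**Figure D1:**
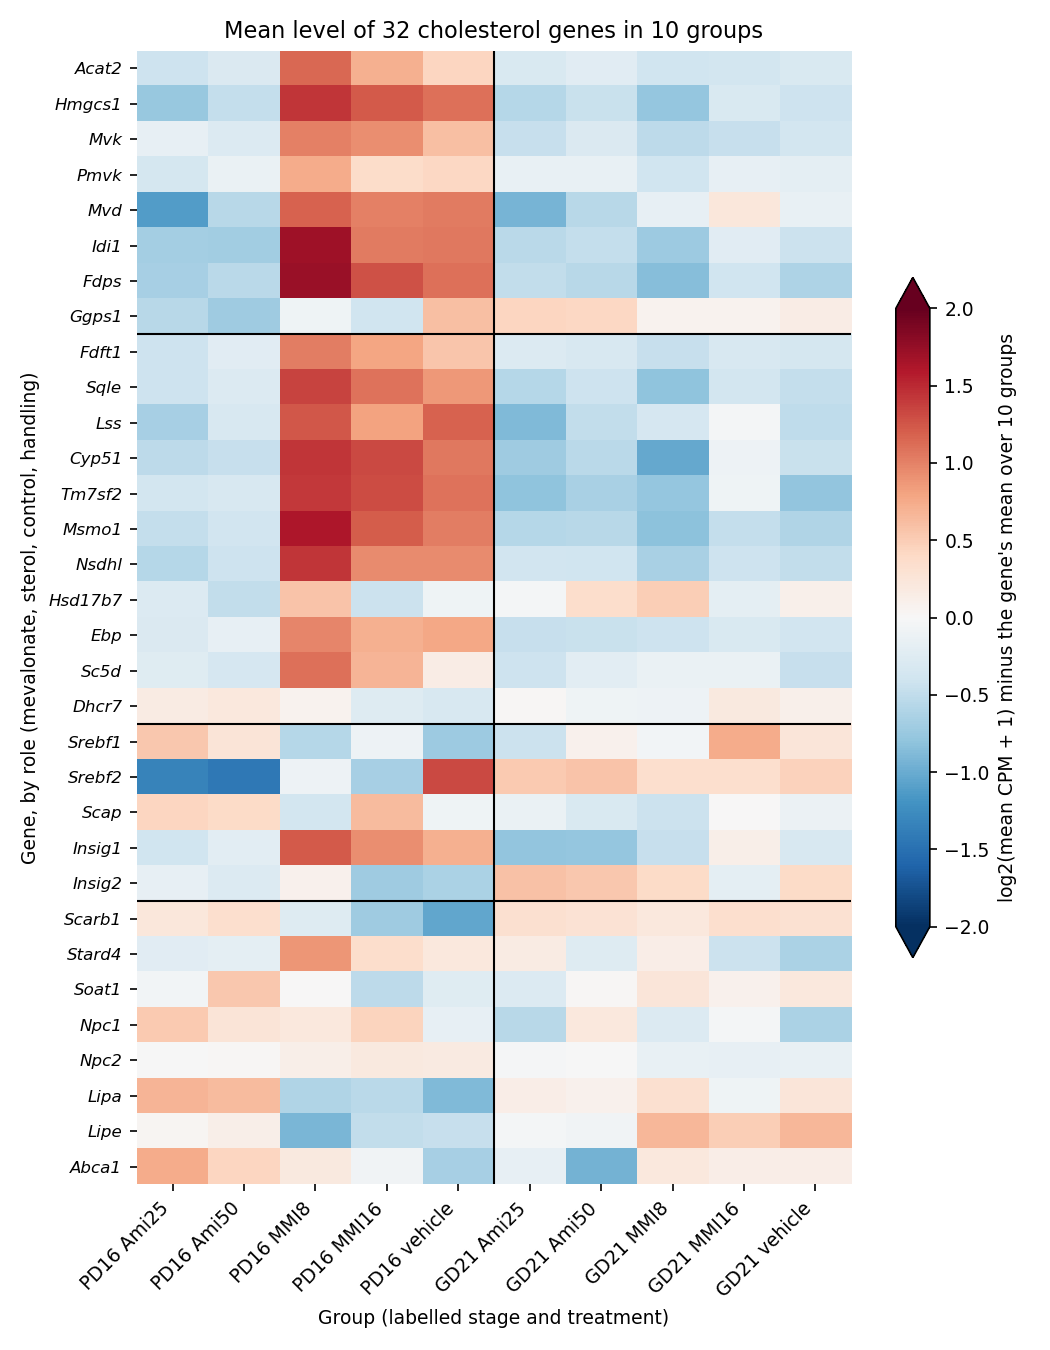
Level of each of the 32 genes in the 10 groups, as log2(mean CPM + 1) minus the gene's own mean over the groups; rows are ordered by role and columns by stage and treatment. Most enzyme rows are low in both Ami groups at PD16 and in all 5 groups at GD21, and high in the MMI and vehicle groups at PD16, and the Srebf2 row is highest in the PD16 vehicle column.

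At PD16 the enzymes of cholesterol synthesis were lower in Ami libraries than in vehicle libraries along nearly the whole pathway, while Scarb1 and Lipa, which serve the uptake and release of cholesterol, were higher. Under Ami50, 18 of the 25 tested genes fell and 3 rose, against a background of 26.5% of all 4906 tested genes lower and 27.1% higher. Ami25 gave the same counts, 18 and 3, against 27.5% lower and 27.9% higher. The median log2 fold change of the 25 genes was -0.93 under Ami50 and -0.98 under Ami25, where the median over all genes was 0.02 and 0.01. Among the 19 enzymes 16 fell and 1 rose under each dose, and the summed level of their RNA was 1756 ± 542.3 CPM in Ami50 libraries (SD, n = 12) and 1641 ± 466 CPM in Ami25 libraries (n = 11), against 3881 ± 1827 CPM in vehicle libraries (n = 10). The same vehicle libraries served both comparisons. In bulk samples, fewer cells of a type and less RNA per cell cannot be told apart. The mean embryonic globin share was 0.18% in Ami25 and 0.142% in Ami50 libraries, against 14.8% in vehicle libraries. In the Ami comparisons with vehicle at PD16, here and below, treatment and stage therefore cannot be told apart. Fell and rose mean lower and higher than in vehicle libraries.

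All 8 mevalonate genes fell under both doses. Idi1, which encodes the isomerase that interconverts the 2 isoprenoid units, had lowest, median and highest levels of 22.7, 82.2 and 218.0 CPM in Ami25 libraries and 42.5, 83.6 and 171.7 CPM in Ami50 libraries, against 60.7, 333.6 and 528.7 CPM in vehicle libraries. The groups overlapped, with 3 of 11 Ami25 and 3 of 12 Ami50 libraries below every vehicle library. Its log2 fold change was -1.59 ± 0.30 under Ami25 (SE, adjusted p = 1.38e-05, edgeR quasi-likelihood test with Benjamini-Hochberg adjustment, as for every adjusted p here) and -1.68 under Ami50 (SE 0.30, adjusted p = 4.36e-06). Mvd, which encodes the decarboxylase that yields isopentenyl diphosphate, was near the detection limit in Ami libraries, with lowest, median and highest levels of 0, 4.57 and 12.3 CPM under Ami25 and 2.49, 6.77 and 12.7 CPM under Ami50, against 4.88, 20.5 and 75.0 CPM in vehicle libraries. The highest vehicle value came from library 4 alone, where the next one held 36.4 CPM. Its log2 fold changes were -2.25 ± 0.42 (adjusted p = 6.11e-06) and -1.63 ± 0.37 (adjusted p = 0.000187).

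Fdps encodes farnesyl diphosphate synthase, the branch point to sterols, dolichol, ubiquinone and protein prenylation. Its levels were 170.5, 333.9 and 535.4 CPM (lowest, median and highest) in Ami25 libraries and 228.2, 351.3 and 832.9 CPM in Ami50 libraries, against 374.4, 1389 and 2183 CPM in vehicle libraries. Of the Ami libraries, 6 of 11 under Ami25 and 7 of 12 under Ami50 lay below every vehicle library. The log2 fold changes were -1.68 ± 0.26 (adjusted p = 2.13e-07) under Ami25 and -1.58 ± 0.25 (adjusted p = 4.41e-07) under Ami50 (2.99-fold lower). Hmgcs1, the cytosolic HMG-CoA synthase, fell by 1.78 and 1.58 on the log2 scale, and Ggps1, which makes the prenyl donor geranylgeranyl diphosphate, by 1.15 and 1.33. Acat2, which joins 2 acetyl-CoA at the pathway's first step, and the kinases Mvk and Pmvk moved least, with log2 fold changes between -0.85 and -0.45 over the 2 doses. RefSeq lists pseudogene copies of Acat2, Idi1, Fdps and Nsdhl, so that reads of these genes may be shared with or lost to a copy.

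Of the 11 genes from squalene onwards, 8 fell under both doses. Tm7sf2, one of the sterol C14 reductases, had levels of 2.28, 10.3 and 18.2 CPM (lowest, median and highest) under Ami25 and 2.13, 8.59 and 25.4 CPM under Ami50, against 8.67, 26.0 and 59.0 CPM in vehicle libraries, and log2 fold changes of -1.35 ± 0.28 and -1.57 ± 0.28 (adjusted p = 3.86e-05 and 4.07e-06). Cyp51, the lanosterol 14-demethylase, had 15.2, 34.3 and 58.1 CPM under Ami25 and 16.3, 29.7 and 94.98 CPM under Ami50, against 15.2, 109.1 and 261.8 CPM in vehicle libraries. Here the lowest vehicle library was as low as the lowest Ami25 library, and the log2 fold changes were -1.45 ± 0.32 and -1.55 ± 0.32 (adjusted p = 0.000123 and 4.37e-05). Lss, the cyclase that forms lanosterol, had 0, 10.3 and 19.7 CPM under Ami25 and 4.97, 10.9 and 22.9 CPM under Ami50, against 4.75, 38.3 and 85.5 CPM in vehicle libraries, with log2 fold changes of -1.67 ± 0.36 and -1.46 ± 0.34.

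The C4-demethylation enzymes Msmo1 and Nsdhl fell by 1.41 and 1.44 under Ami25 and by 1.38 and 1.37 under Ami50 on the log2 scale, and squalene synthase (Fdft1), squalene epoxidase (Sqle) and the sterol isomerase Ebp fell by 0.71 to 1.17. Hsd17b7, the 3-keto reductase of the same demethylation, and Sc5d, the C5 desaturase, were not called: the intervals of their log2 fold changes under Ami50 ran from -1.05 to 0.59 and from -0.94 to 0.10. Dhcr7, which encodes the reductase of the sterol Δ7 bond at the end of the pathway, was the single enzyme gene that rose. It stood at 152.4 CPM under Ami25 and 161.0 CPM under Ami50 (medians), against 100.4 CPM in vehicle libraries, with log2 fold changes of 0.57 ± 0.16 (adjusted p = 0.00181) and 0.62 ± 0.16 (adjusted p = 0.000571), and its groups overlapped.

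**Figure D2:**
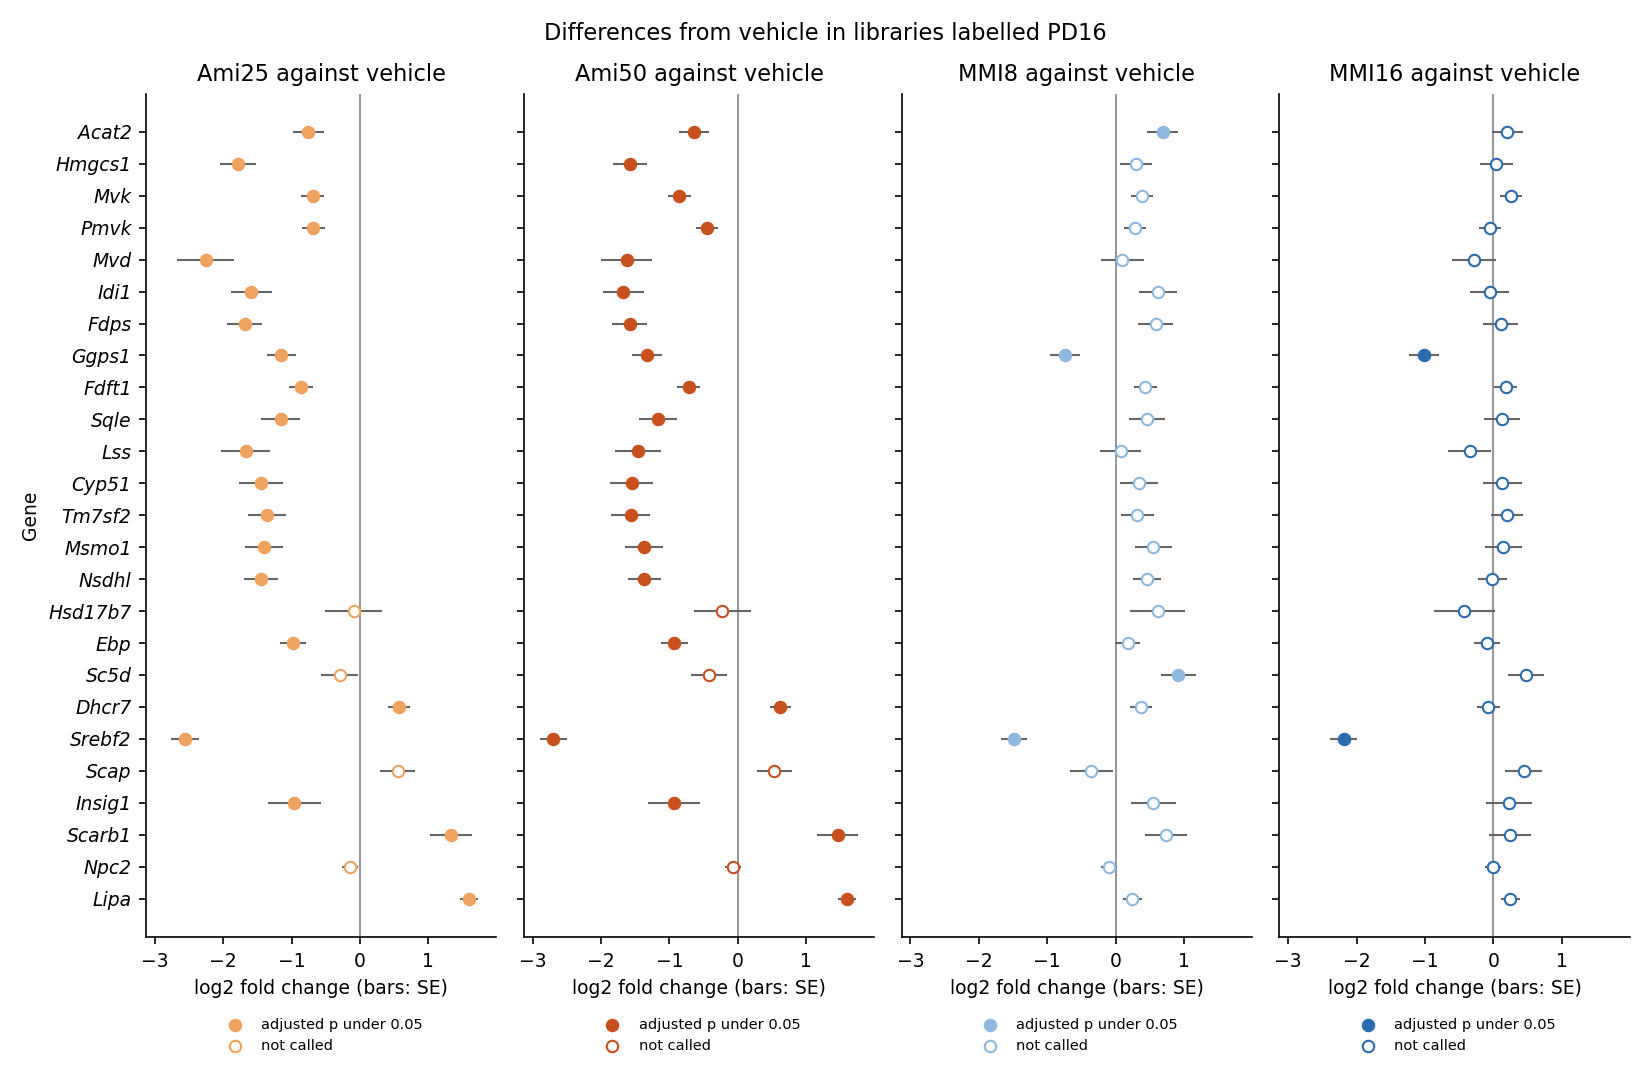
Log2 fold change against vehicle at PD16 for the 25 tested genes in Ami25, Ami50, MMI8 and MMI16 libraries (points, with bars of 1 standard error; filled points have an adjusted p under 0.05). The Ami points lie left of 0 for most enzymes and for Srebf2 and right of 0 for Dhcr7, Scarb1 and Lipa, while most MMI points lie nearer to 0 and those of Srebf2 and Ggps1 lie left of it.

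In the control system Srebf2 differed most. Its levels were 18.5, 30.3 and 49.0 CPM (lowest, median and highest) in Ami25 libraries and 14.5, 26.7 and 47.5 CPM in Ami50 libraries, against 94.3, 170.9 and 338.4 CPM in vehicle libraries. Every Ami library lay below every vehicle library, a separation that 8.74% of all tested genes showed in this direction under Ami25 and 8.76% under Ami50. The log2 fold change was -2.56 ± 0.20 under Ami25 (adjusted p = 4.59e-17, 5.89-fold lower) and -2.70 ± 0.20 under Ami50 (adjusted p = 3.7e-18, 6.48-fold lower). No other member fell without overlap. Insig1, itself induced by SREBP2, was low throughout, with 0, 12.7 and 21.6 CPM under Ami25 and 4.34, 11.1 and 32.9 CPM under Ami50, against 0, 23.6 and 83.8 CPM in vehicle libraries. Its log2 fold changes of -0.96 ± 0.39 (adjusted p = 0.0308) and -0.93 ± 0.38 (adjusted p = 0.0348) rested on few counts and on single libraries: without the library farthest from its group mean in each group, which takes out vehicle library 4 with the 83.8 CPM, they were -0.48 (adjusted p = 0.272) and -0.65 (adjusted p = 0.136).

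Scap was not called (log2 fold change 0.53 ± 0.26 under Ami50, adjusted p = 0.0749), and without the same farthest libraries it was, at 0.71 (adjusted p = 0.00670). Srebf1, which encodes the related factors that drive fatty acid genes, was too low to be tested, with 1.52, 4.57 and 12.0 CPM under Ami25 and 0, 4.34 and 10.1 CPM under Ami50, against 0, 1.68 and 4.88 CPM in vehicle libraries. Insig2 was likewise not tested.

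Of the 8 genes that handle cholesterol, 3 were tested and 2 of these, Scarb1 and Lipa, rose. Scarb1 had 424.4, 4478 and 6094 CPM (lowest, median and highest) in Ami25 libraries and 2302, 4877 and 6626 CPM in Ami50 libraries, against 456.8, 2034 and 2771 CPM in vehicle libraries. The low Ami25 value came from library 79, whose adrenal cortex markers, 12020 CPM in sum, were also the lowest of that group. The log2 fold change was 1.33 ± 0.31 (adjusted p = 0.000233) under Ami25 and 1.46 ± 0.30 (adjusted p = 5.69e-05, 2.75-fold) under Ami50. Lipa, the lysosomal acid lipase that frees cholesterol from its esters, had 383.8, 590.4 and 906.1 CPM under Ami25 and 290.0, 622.1 and 860.1 CPM under Ami50, against 166.9, 215.0 and 253.8 CPM in vehicle libraries. Neither Ami group overlapped with vehicle, as was so for 4.97% (Ami25) and 5.20% (Ami50) of all tested genes in this direction. Lipa rose 3.03-fold and 3.01-fold, with log2 fold changes of 1.60 ± 0.13 (adjusted p = 7.79e-16) and 1.59 ± 0.13 (adjusted p = 5.11e-16). Npc2, the soluble sterol carrier of the lysosome, was not called, and its log2 fold change under Ami50 lay within -0.29 to 0.15.

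The other 5 genes of this role were too low to be tested at either stage: the sterol carrier Stard4, the cholesterol esterifying enzyme Soat1, the lysosomal membrane transporter Npc1, the hormone-sensitive lipase Lipe and the efflux pump Abca1. Their group means lay between 0 CPM for Abca1 in GD21 Ami50 libraries, where a pooled count of 0 allows 0.549 CPM, and 11.7 CPM for Npc1. Npc1 was among the 26 genes tested in the fits of both stages together and was not called in any of those comparisons. Its unadjusted p was under 0.05 by edgeR only for PD16 against GD21 in Ami25.

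Cell type markers were also described in the Ami and vehicle libraries labelled PD16. The 6 adrenal cortex markers had medians of 39750 CPM in Ami25 and 42770 CPM in Ami50 libraries, against 15620 CPM in vehicle libraries, with ranges of 12020 to 52010, 21670 to 60230 and 13430 to 20520 CPM. None of the 6 was at 0 in any group. Mc2r differed little, with means of 18.9 ± 7.76 CPM under Ami25 and 17.1 ± 9.18 CPM under Ami50, against 16.1 ± 4.36 CPM in vehicle libraries. The embryonic globin share of globin counts was 0.18 ± 0.0698% under Ami25 and 0.142 ± 0.0798% under Ami50, against 14.8 ± 2.51% in vehicle libraries. The 6 red cell markers had summed medians of 46310 CPM under Ami25 and 44070 CPM under Ami50, against 23470 CPM in vehicle libraries. Means of Hba-a1, Hbb-b1 and Alas2 were above those of vehicle and means of Hbz, Hbe1 and Hbg1 below. The adrenal medulla markers had summed medians of 1148 and 1179 CPM, against 787.8 CPM. Pnmt, Th and Chga had means above those of vehicle and Dbh and Chgb below. The 6 macrophage markers, none at 0, had summed medians of 164.5 CPM under Ami25 and 119.1 CPM under Ami50, against 126.9 CPM in vehicle libraries, with members in opposite directions. Under both Ami doses the group means of Csf1r, C1qa, C1qb, Cd163 and Cd68 were above those of vehicle, as for C1qb with 38.3 ± 11.7 CPM under Ami25 and 38.9 ± 16.2 CPM under Ami50, against 12.3 ± 5.17 CPM in vehicle libraries. Mrc1 had means of 43.6 ± 7.67 CPM under Ami25 and 39.4 ± 15.5 CPM under Ami50, against 86.6 ± 10.0 CPM in vehicle libraries. Of the 4 adipocyte genes, Adipoq, Plin1 and Cidec were at 0 in Ami50 and vehicle libraries and at means of 0.165, 0 and 0.294 CPM under Ami25, while Lpl had 10.4 ± 4.02 CPM under Ami25 and 12.95 ± 5.63 CPM under Ami50, against 3.10 ± 2.24 CPM in vehicle libraries. Without the 8 libraries low in Eif2s3y, 16 members fell and 3 rose under Ami50, and without those holding Alb at 200 CPM or more, 17 fell and 3 rose. The part of tissue makeup in these differences was not tested. Given the globin shares, a difference of treatment and a difference of stage between the Ami and vehicle libraries labelled PD16 cannot be told apart.

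**Figure D3:**
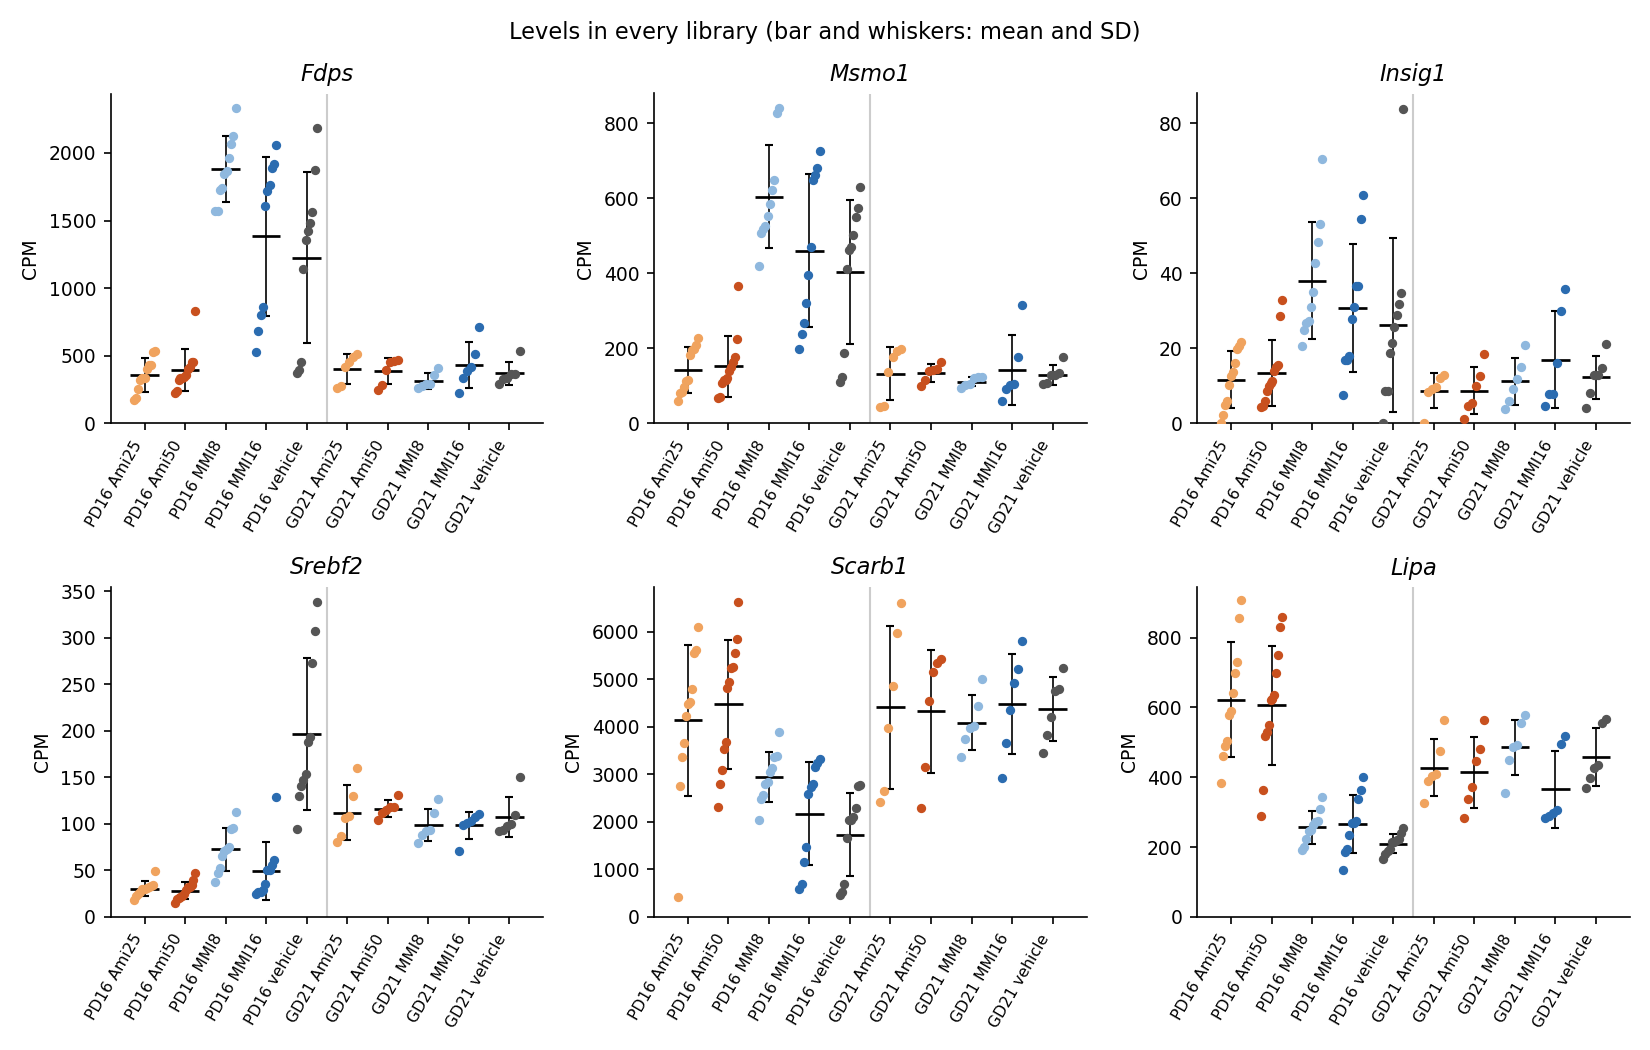
CPM of Fdps, Msmo1, Insig1, Srebf2, Scarb1 and Lipa in every library of the 10 groups (points), with the group mean (bar) and SD (whiskers) on linear axes from 0. Srebf2 is high in all PD16 vehicle libraries and below them in every PD16 Ami library, where Lipa is above every vehicle library; Fdps and Msmo1 split the PD16 vehicle and MMI16 groups into low and high libraries.

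Methimazole gave a different picture at PD16: Srebf2 fell at both doses while most enzymes were not called. The Ami libraries also differed from the MMI and vehicle libraries in embryonic globin share. Compound and stage therefore cannot be told apart where the MMI results are set beside the Ami results. Under MMI8, 2 of the 25 genes fell and 2 rose (background 6.91% lower and 1.47% higher), and under MMI16, 2 fell and 0 rose (7.26% and 0.856%). By DESeq2's Wald test the 4 counts were the same. Under MMI8, 21 of the 25 log2 fold changes were positive and 12 genes had an unadjusted p under 0.05, compared with 14 positive and 2 such genes under MMI16. Over all 4906 tested genes, edgeR gave such a p for 831 under MMI8 and 775 under MMI16. The median log2 fold change of the 25 genes was 0.37 under MMI8 and 0.11 under MMI16, where the median over all genes was 0.01 and 0.07. Srebf2 had 37.7, 72.0 and 113.1 CPM (lowest, median and highest) in MMI8 libraries and 24.4, 43.1 and 128.5 CPM in MMI16 libraries, against 94.3, 170.9 and 338.4 CPM in vehicle libraries. The groups overlapped at the edges, and all 10 libraries of each dose lay below the vehicle mean. The log2 fold change was -1.48 ± 0.19 under MMI8 (adjusted p = 3.91e-09, 2.79-fold lower) and -2.19 ± 0.20 under MMI16 (adjusted p = 3.87e-14, 4.55-fold lower).

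Ggps1 also fell at both doses. It had 8.16, 24.5 and 43.7 CPM under MMI8 and 7.73, 17.4 and 36.5 CPM under MMI16, against 25.0, 40.0 and 51.3 CPM in vehicle libraries, with overlap and with log2 fold changes of -0.74 ± 0.21 (adjusted p = 0.0162) and -1.01 ± 0.21 (adjusted p = 0.000269). Sc5d rose under MMI8, where it had 160.1, 245.1 and 393.2 CPM, against 44.6, 95.9 and 261.7 CPM in vehicle libraries (log2 fold change 0.92 ± 0.26, adjusted p = 0.0124). Under MMI16 it had 86.8, 173.3 and 294.0 CPM (0.48 ± 0.26, adjusted p = 0.393). Acat2 had 759.6, 932.2 and 1144 CPM under MMI8 and 251.9, 803.2 and 908.8 CPM under MMI16, against 211.8, 590.9 and 883.0 CPM in vehicle libraries. Its rise under MMI8 (log2 fold change 0.69 ± 0.22, adjusted p = 0.0423) was lost under 6 alternative settings, with adjusted p between 0.0501 and 0.173, and that of Sc5d under 2 of them, with adjusted p of 0.0597 and 0.0648.

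The remaining enzymes had log2 fold changes of 0.07 to 0.62 under MMI8 and -0.42 to 0.26 under MMI16, none called. For Fdps the median was 1855 CPM under MMI8 and 1662 CPM under MMI16, against 1389 CPM in vehicle libraries, and the intervals of the log2 fold change ran from 0.09 to 1.08 and from -0.39 to 0.60. A fall as large as that under either Ami dose lies outside both. Insig1 had 20.7, 33.1 and 70.5 CPM under MMI8 and 7.70, 29.4 and 61.0 CPM under MMI16, against 0, 23.6 and 83.8 CPM in vehicle libraries, and was not called (adjusted p = 0.452 and 0.852). Scarb1 had 2039, 2940 and 3877 CPM under MMI8 and 595.6, 2659 and 3316 CPM under MMI16, against 456.8, 2034 and 2771 CPM in vehicle libraries (log2 fold changes 0.74 ± 0.31, adjusted p = 0.172, and 0.25 ± 0.31, adjusted p = 0.795). Lipa had log2 fold changes of 0.24 and 0.25, neither called. Srebf1 had medians of 1.36 CPM under MMI8 and 2.48 CPM under MMI16, against 1.68 CPM in vehicle libraries, and was not tested. The embryonic globin share was 17.05 ± 2.82% under MMI8 and 16.4 ± 4.28% under MMI16, near the 14.8 ± 2.51% of vehicle libraries, and the macrophage markers had summed medians of 73.7 and 53.6 CPM, against 126.9 CPM in vehicle libraries. Most of that gap was Mrc1, with 28.6 ± 13.0 CPM under MMI8 and 12.8 ± 2.99 CPM under MMI16, against 86.6 ± 10.0 CPM in vehicle libraries. The means of C1qa (3.59 and 5.61, against 6.80 CPM) and Cd163 (0.794 and 1.42, against 2.49 CPM) were also below those of vehicle. Those of C1qb and Cd68 were above at both doses, as was Csf1r, with 18.4 ± 7.44 CPM under MMI8 and 18.6 ± 7.26 CPM under MMI16, against 16.1 ± 6.04 CPM in vehicle libraries. The part of these markers in the fall of Srebf2 was not tested.

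Between doses, 0 of the 25 genes were called. For MMI16 against MMI8 the unadjusted p was under 0.05 for 8 of them, by edgeR and by DESeq2 alike. Over all 4906 tested genes edgeR gave such a p for 600 and called 2.08%. Srebf2 had the log2 fold change -0.71 ± 0.23 (adjusted p = 0.0998, interval -1.15 to -0.26). Without MMI16 library 10, which had the fewest counts of all and the group's highest Srebf2 level, the value was -0.87 (adjusted p = 0.0138). For Ami50 against Ami25 no member had an unadjusted p under 0.05 by either tool, where edgeR gave one for 231 of all 4906 tested genes. No gene at all was called by edgeR (0% in each direction). There the interval for Srebf2 ran from -0.62 to 0.35, for Fdps from -0.39 to 0.60, for Lipa from -0.24 to 0.23 and for Scarb1 from -0.43 to 0.68.

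Between the compounds only their highest doses were compared, and these differ in mg per kg. The mean embryonic globin shares also differed, 0.142% in Ami50 and 16.4% in MMI16 libraries, so that compound and stage cannot be told apart here. In Ami50 against MMI16, 17 of the 25 genes were lower and 3 higher, against a background of 25.0% and 22.6% of all tested genes. Fdps was lower in Ami50 (log2 fold change -1.69 ± 0.25, adjusted p = 2.02e-07), as were Tm7sf2 (-1.76 ± 0.29) and Cyp51 (-1.68 ± 0.32), while Lipa (1.34 ± 0.13, adjusted p = 9.63e-13), Scarb1 (1.21 ± 0.30) and Dhcr7 (0.69) were higher. Srebf2 was not called between them (-0.51 ± 0.24, adjusted p = 0.0804), although DESeq2 called it at -0.57 (adjusted p = 0.0371), nor was Ggps1 (-0.32, adjusted p = 0.311). The Scarb1 difference did not pass without the 8 Ami50 libraries low in Eif2s3y (0.89, adjusted p = 0.0958), and Lss (-1.07, adjusted p = 0.118), Mvd (-1.48, adjusted p = 0.0504) and Pmvk (-0.42, adjusted p = 0.131) lost their calls there with folds close to those of all libraries (-1.11, -1.35 and -0.41).

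Library by library, Srebf2 and the enzymes did not move together across treatments. Most PD16 vehicle libraries were high in both, MMI libraries had low Srebf2 with enzyme sums from 1843 CPM in MMI16 up to 7302 CPM in MMI8, and Ami libraries were low in both. Every MMI8 library, the lowest at 4590 CPM, lay above the vehicle median. The sum of the 19 enzyme genes had medians of 1720 CPM under Ami25, 1657 CPM under Ami50, 5568 CPM under MMI8 and 5077 CPM under MMI16, against 4336 CPM in vehicle libraries. Within the vehicle group, libraries 22, 24 and 60 had enzyme sums of 1467, 1534 and 1556 CPM, while the other 7 lay between 3599 and 6631 CPM. The same 3 libraries were the lowest for 16 of the 19 enzymes. Their Srebf2 levels of 130.1, 187.9 and 153.9 CPM lay above every MMI and Ami library at PD16. Their Scarb1 levels were 456.8, 524.2 and 691.4 CPM, below the 1659 to 2771 CPM of the other vehicle libraries, and their adrenal cortex sums, 13430 to 16210 CPM, overlapped with the 14700 to 20520 CPM of the others. Within MMI16, libraries 9, 30, 11 and 29 had enzyme sums of 1843, 2411, 2841 and 3125 CPM, against 4983 to 6196 CPM in the other 6, and again held low Scarb1 (595.6 to 1462 CPM, against 2583 to 3316 CPM). Here the adrenal cortex sums moved with the split, at 8298 to 17270 CPM in the 4 libraries, against 17040 to 25980 CPM in the other 6. In Ami50, libraries 17, 19 and 18 had the lowest enzyme sums and cortex sums of 21670 to 33640 CPM. Libraries 39, 84 and 37 had the highest enzyme sums and cortex sums of 54510 to 60230 CPM. In Ami25, library 79 was lowest in both, but library 13, highest in the enzymes, had a cortex sum of 42390 CPM, below the 52010 CPM of library 16. These libraries were picked out by their values, so the differences are descriptions without a test.

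**Figure D4:**
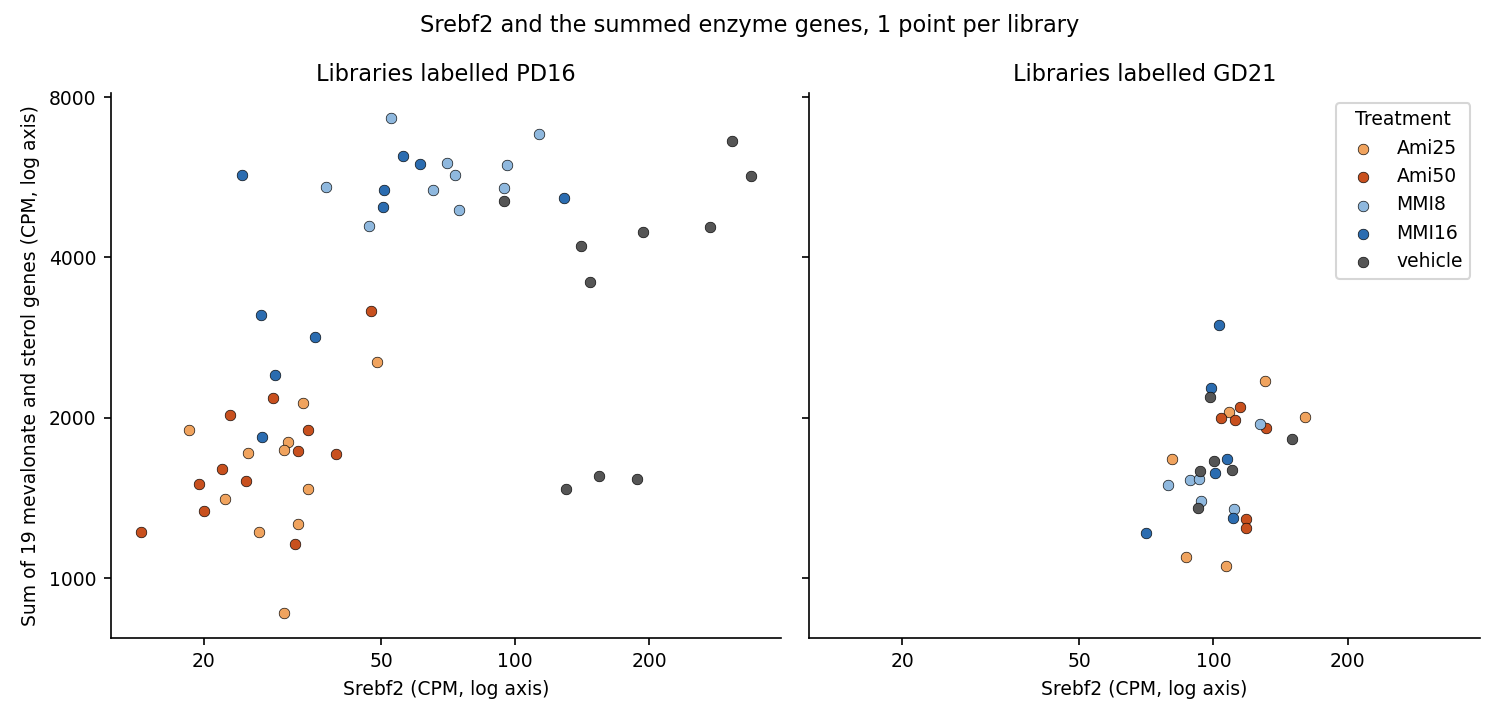
Srebf2 level against the summed level of 19 enzyme genes in each library (CPM, log axes), for PD16 and GD21, coloured by treatment. At PD16 the Ami libraries lie low on both axes, the MMI libraries lie at low Srebf2 with mostly high enzyme sums, and 3 vehicle libraries have high Srebf2 with low enzyme sums; at GD21 the 5 treatments lie together.

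At GD21 no member was called in any of the 4 comparisons with vehicle, and no gene at all was called by edgeR (background 0% in each). An unadjusted p under 0.05 was found for 1 of 25 members under Ami25 (Mvd), 0 under Ami50, 0 under MMI8 and 1 under MMI16 (Tm7sf2), and DESeq2 also called no member, although it called 22 of all genes under Ami50. Over all genes an unadjusted p under 0.05 was found by edgeR for 579 under Ami25, 421 under Ami50, 178 under MMI8 and 211 under MMI16. The log2 fold changes ranged from -0.91 to 0.28 under Ami25, -0.42 to 0.28 under Ami50, -0.53 to 0.34 under MMI8 and -0.35 to 0.73 under MMI16. Srebf2 had medians of 107.4 CPM in Ami25, 116.5 CPM in Ami50, 93.3 CPM in MMI8 and 101.7 CPM in MMI16 libraries, against 99.2 CPM in vehicle libraries, and the 5 groups overlapped. The interval of its log2 fold change was -0.20 to 0.38 under Ami25, -0.15 to 0.43 under Ami50, -0.39 to 0.19 under MMI8 and -0.42 to 0.16 under MMI16, so that a fall of the size seen at PD16 lies outside all 4. For Fdps the medians were 435.0, 422.8, 290.7 and 402.2 CPM in the Ami25, Ami50, MMI8 and MMI16 libraries, against 349.2 CPM in vehicle libraries, and the lowest of the 4 lower bounds was -0.67. For Lipa the highest of the upper bounds was 0.43.

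The labelled stages were compared within each treatment. Mean embryonic globin shares were 14.8, 17.05 and 16.4% in vehicle, MMI8 and MMI16 libraries labelled PD16. In those labelled GD21 they were 0.161, 0.0983 and 0.198%. The differences below are therefore between labels, and the true stage of these libraries was not tested. In vehicle libraries, 15 of 26 tested genes were higher at PD16 than at GD21 and 3 were lower, against a background of 25.4% and 21.6% of all 6287 tested genes. Fdps had 374.4, 1389 and 2183 CPM (lowest, median and highest) at PD16, against 290.5, 349.2 and 538.1 CPM at GD21, and the groups overlapped through the 3 low PD16 libraries. Its log2 fold change was 1.60 ± 0.29 (adjusted p = 3.59e-06, 3.03-fold), beside 1.84 ± 0.30 for Tm7sf2, 1.64 ± 0.37 for Lss, 1.40 ± 0.34 for Cyp51 and 1.36 ± 0.33 for Idi1. Srebf2 was higher by 0.74 ± 0.18 (adjusted p = 0.000319). The 3 genes that were lower were Dhcr7 (-0.56 ± 0.17, adjusted p = 0.00365), Lipa (-1.25 ± 0.16, adjusted p = 1.69e-10) and Scarb1 (-1.46 ± 0.31, adjusted p = 6.21e-05). Scarb1 had 456.8, 2034 and 2771 CPM at PD16, against 3441, 4482 and 5241 CPM at GD21, and neither it nor Lipa overlapped between the stages, as was so for 6.19% of all genes in this direction. The adrenal cortex sum also differed, with medians of 15620 CPM at PD16, against 29760 CPM at GD21 in vehicle libraries, and its part was not tested.

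MMI8 libraries had 17 genes higher and 2 lower at PD16 than at GD21 (background 26.5% and 23.1%), and 14 of the 17 did so without overlap, which 10.9% of all genes did. There Fdps was 5.49-fold higher (log2 fold change 2.46 ± 0.30, adjusted p = 1.74e-10), and Insig1 was higher by 1.48 ± 0.41 (adjusted p = 0.00163). The 2 lower genes were Lipa (-1.04) and Srebf2 (-0.58 ± 0.19, adjusted p = 0.00921). MMI16 libraries had 13 higher and 4 lower (25.6% and 21.9%), with Srebf2 at -1.30 ± 0.20 (adjusted p = 1.14e-07), Scarb1 at -1.22 ± 0.31 and Fdps at 1.51 ± 0.29.

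In Ami libraries few members differed between the stages. Ami25 and Ami50 each had 0 genes higher and 2 lower, Srebf2 and Ggps1, against backgrounds of 5.23% higher and 6.71% lower for Ami25 and of 1.42% and 6.46% for Ami50. Srebf2 was lower without overlap at -1.95 ± 0.20 (adjusted p = 2.09e-13) in Ami25 and -2.15 ± 0.20 (adjusted p = 8.76e-16) in Ami50, as were 2.91% and 3.29% of all genes. Ggps1 was lower by -1.10 ± 0.24 (adjusted p = 0.000391) and -1.31 ± 0.24 (adjusted p = 9.19e-06). Fdps in Ami50 had 228.2, 351.3 and 832.9 CPM at PD16, against 249.0, 422.8 and 470.2 CPM at GD21, with an interval of -0.63 to 0.43 for the log2 fold change. The sum of the 19 enzyme genes ran from 860.1 to 3171 CPM over the Ami libraries labelled PD16, against 1053 to 2990 CPM over all GD21 libraries. The mean embryonic globin shares of the 2 Ami groups at PD16 lay within the span of the GD21 group means.

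**Figure D5:**
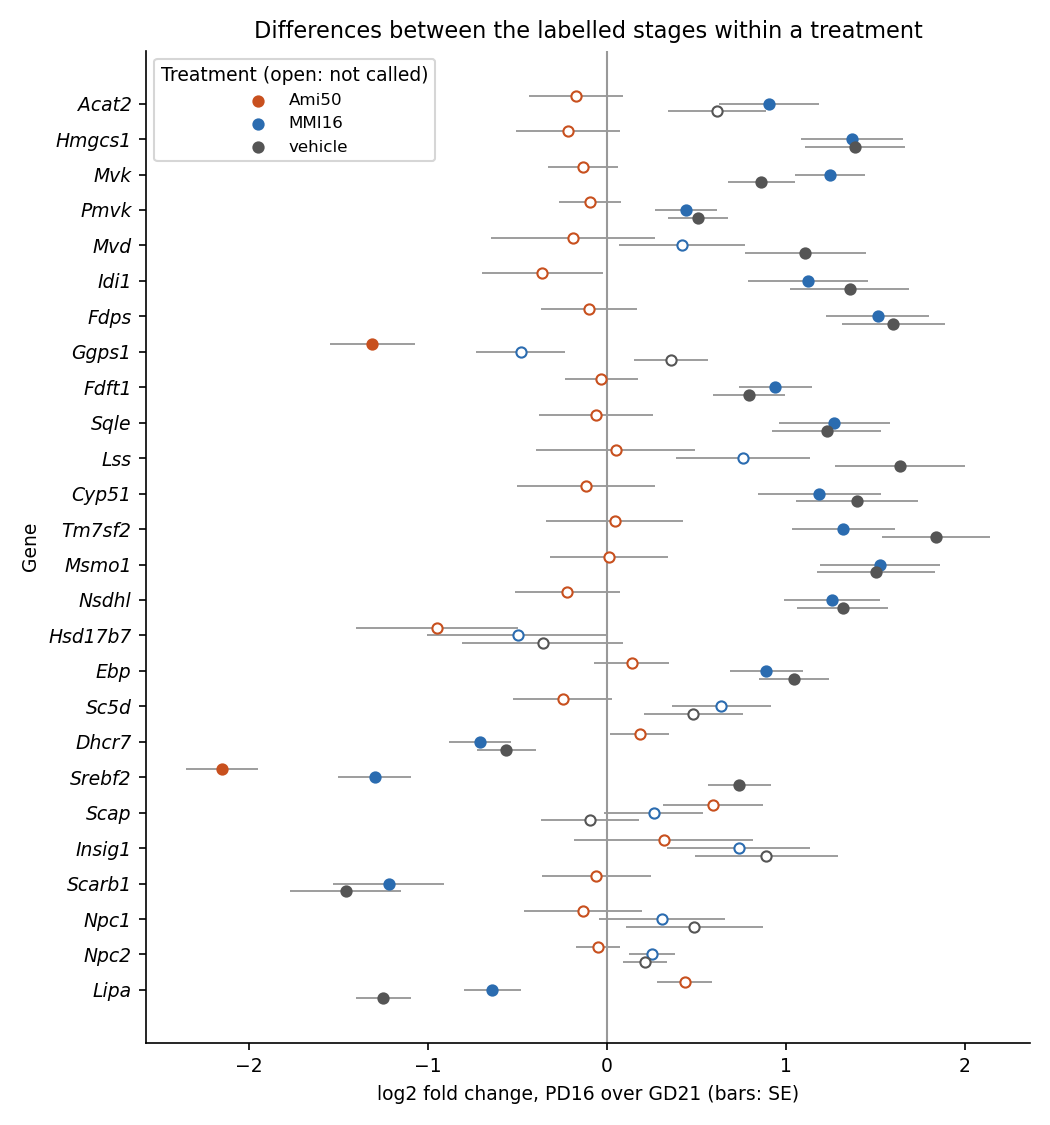
Log2 fold change of PD16 over GD21 within Ami50, MMI16 and vehicle libraries for the 26 tested genes (points, with bars of 1 standard error; filled points have an adjusted p under 0.05). Most enzymes lie right of 0 in MMI16 and vehicle libraries and near 0 in Ami50 libraries, while Srebf2 lies right of 0 in vehicle libraries only.

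Whether the difference from vehicle changed between the labelled stages was tested as an interaction. For Ami it contains the PD16 difference from vehicle, in which treatment and stage cannot be told apart. It was called for 14 of 26 genes under Ami25 (3 higher, 11 lower; background 15.7% and 15.2%), for 18 under Ami50 (3 higher, 15 lower; 16.1% and 16.7%), and for 1 gene, Srebf2, under MMI8 (background 3.96% lower and 0.398% higher) and MMI16 (4.79% lower and 0.191% higher). For Srebf2 the PD16 effect minus the GD21 effect was -2.69 ± 0.27 under Ami25, -2.89 ± 0.27 under Ami50, -1.32 ± 0.26 under MMI8 and -2.04 ± 0.27 under MMI16. Fdps had -1.85 ± 0.39 under Ami25 and -1.70 ± 0.39 under Ami50, and Lipa 1.66 ± 0.22 and 1.68 ± 0.22.

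Genes next to this pathway were counted from 6 further lists. Over all tested genes at PD16, 27.1% rose and 26.5% fell under Ami50, and each list held few tested genes. Under Ami50 at PD16, 2 of 5 tested genes of sterol transport between membranes rose: Scp2, a sterol carrier that also serves peroxisomal lipid breakdown (615.0 ± 60.3 CPM in Ami50 libraries, against 312.5 ± 34.8 CPM in vehicle libraries; log2 fold change 1.06 ± 0.08, adjusted p = 1.94e-18), and the late endosomal GTPase Rab7a (0.47 ± 0.12). Of 4 genes for SREBP processing and sterol-linked degradation, 1 rose, the membrane heme protein Pgrmc1 (446.1 ± 109 CPM, against 183.9 ± 63.8 CPM; 1.38 ± 0.21). Of 6 genes of fatty acid synthesis, 2 rose and 2 fell, among them the elongase Elovl6 (-1.82 ± 0.23), the malic enzyme Me1 (1.47 ± 0.31) and ATP citrate lyase Acly (-0.99 ± 0.17), which makes the acetyl-CoA used for both lipids.

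Of 6 genes that use isoprenoids, 2 rose (Pdss2 and Dhdds) and 1 fell (Rabggtb). Of 2 lipid droplet genes 1 rose, the triglyceride lipase Pnpla2 (1.26 ± 0.20). Both tested genes of the oxysterol and efflux list rose, the liver X receptor Nr1h2 (0.78 ± 0.25, adjusted p = 0.00768) and Apoa1 (2.83 ± 0.96, adjusted p = 0.0110), which is also a liver marker and varied from library to library (125.2 ± 312 CPM in Ami50 libraries). Under MMI16 none of the other 5 lists had a called gene, and Plin2, which coats lipid droplets, fell (203.5 ± 44.9 CPM in MMI16 libraries, against 396.3 ± 135 CPM in vehicle libraries; -1.02 ± 0.14, adjusted p = 4.49e-08). Over all tested genes, 7.26% fell and 0.856% rose under MMI16. Under Ami25, 4 of the 5 sterol transport genes rose, 1 of the 2 oxysterol and efflux genes rose, and of the isoprenoid genes 1 rose and 1 fell. The other lists had the same counts as under Ami50. Over all tested genes, 27.9% rose and 27.5% fell under Ami25.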

How the data were processed

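Read counts per gene symbol were deposited by the authors as whole numbers in 1 table of 83 libraries and 17483 symbols, made by BRB-seq per the labels. The submitters' processing notes name BWA 0.7.4.4 and the rat build rn6. The counting program, gene annotation, strand setting and any collapsing of molecular barcodes were not given in the sources used here. All 83 columns were matched to samples by their library names, and groups were taken from the stage and treatment labels.

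CPM values are counts divided by the library's total and multiplied by 1000000. Differences were tested with edgeR 4.0.16 (R 4.3.3, limma 3.58.1) by the quasi-likelihood F test with robust fitting, TMM factors and filterByExpr at a minimum count of 10. The 5 groups of a stage were fitted together (4906 genes tested at PD16, 6236 at GD21), and all 10 groups for comparisons involving both stages (6287 genes). P-values were adjusted by Benjamini-Hochberg over all tested genes and called under 0.05. A standard error is the log2 fold change divided by the root of F, and intervals are 95% intervals from it. DESeq2 1.42.0 served as an alternative beside 10 other planned ones and 1 added after seeing the data (edgeR's legacy fit). The edgeR step was tested on simulated data.

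The members and the other lists were chosen with earlier results of these data known. All 32 members are accounted for. Values are given as lowest, median and highest for the 3 called members with the largest change in each role under Ami50 at PD16, for every member called under MMI8 or MMI16, and for Srebf1, Srebf2, Insig1 and Scarb1. In the other lists, up to 3 called genes are named for Ami50 and up to 2 for MMI16. Promoter sequences came from RefSeq tables (GRCr8) and were joined by symbol only, since the build differs from rn6.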

Additional observations from a re-analysis of the deposited data

Results flagged for a closer look

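The difference from vehicle changed between the labelled stages for some members by the interaction test, with an adjusted p under 0.05 by edgeR. Values are the log2 fold change against vehicle at PD16 minus that at GD21, and a positive value means a higher log2 fold change at PD16. Under methimazole this was so for Srebf2 alone, with -1.32 at MMI8 and -2.04 at MMI16. For the Ami values below, treatment and stage cannot be told apart in the PD16 part, given the globin shares.

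Under Ami50 the difference was -2.89 for Srebf2. Among the mevalonate genes it was -1.72 for Idi1, -1.70 for Fdps, -1.67 for Ggps1, -1.60 for Hmgcs1, -0.9998 for Mvk and -0.60 for Pmvk. Among the later enzymes it was -1.80 for Tm7sf2, -1.59 for Lss, -1.54 for Nsdhl, -1.51 for Cyp51, -1.49 for Msmo1, -1.29 for Sqle, -0.91 for Ebp, -0.83 for Fdft1 and 0.75 for Dhcr7. For cholesterol supply it was 1.40 for Scarb1 and 1.68 for Lipa. The call for Pmvk was lost under 10 of the 12 alternatives (adjusted p 0.0533 to 0.115) and that for Lss under 5 (0.0628 to 0.103), while Idi1, Fdft1, Sqle and Scarb1 lost theirs under 1 each.

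Under Ami25 it was -2.69 for Srebf2. It was -1.85 for Fdps, -1.64 for Hmgcs1, -1.52 for Idi1, -1.46 for Ggps1 and -0.81 for Pmvk in the mevalonate part. Later enzymes had -1.57 (Nsdhl), -1.46 (Tm7sf2), -1.46 (Msmo1), -0.98 (Fdft1), -0.96 (Ebp) and 0.61 (Dhcr7). Scarb1 had 1.27 and Lipa 1.66. The call was lost under 5 alternatives for Dhcr7, 3 for Scarb1 and 1 for Tm7sf2.

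Single libraries stood apart in 11 of 112 tests of one member in one group, where chance gives about 1 in 20 groups. The tests covered 14 members in 8 groups, since the 2 Ami groups at PD16 hold more than 10 libraries and were not tested. In them, Ami25 library 79 had 424.4 CPM of Scarb1, where the next library had 2751 CPM. Library 4 of the PD16 vehicle group was high for Mvd (75.0 CPM, next 36.4 CPM) and for Insig1 (83.8 CPM, next 34.7 CPM). Library 10 of PD16 MMI16, which had the fewest counts, was high for Srebf2 (128.5 CPM from 26 counts, next 61.0 CPM) and Cyp51 (316.4 CPM, next 155.6 CPM). Library 25 of PD16 MMI8 was high for Idi1 (661.2 CPM, next 482.6 CPM).

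In GD21 vehicle libraries Fdps was high in library 44 (538.1 CPM), Srebf2 in library 61 (150.4 CPM) and Acat2 low in library 62 (191.4 CPM). Srebf2 was low in library 50 of GD21 MMI16 (70.5 CPM, next 98.5 CPM). Acat2 was high in library 67 of GD21 MMI8 (508.8 CPM, next 330.1 CPM). Insig1 was at 0 CPM in library 82 of GD21 Ami25, where the next library had 8.45 CPM.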

How the results depend on the processing

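No called member reversed its direction under any of the 12 alternatives. At PD16 the 2 members higher under MMI8 became 1 with DESeq2's size factors, with a mean of at least 10 CPM, with the library number series as covariate and without libraries low in Eif2s3y, and 0 with no filter and with only the groups compared. With no filter on low counts, Abca1 and Srebf1 were also called higher under both Ami doses and Soat1 under Ami50, so that 5 members rose under Ami25 and 6 under Ami50, and 6 members rather than 3 were lower at PD16 than at GD21 in vehicle libraries (Insig2, Lipe and Srebf1 added).

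For MMI16 against MMI8, 0 members became 1 (Srebf2) without libraries under 0.5 of the stage median total and 2 (Srebf2, Dhcr7) without the library farthest from its group mean. Between the stages, the lower members in MMI8 became 1 with total counts alone. The higher members in Ami25 became 1 with total counts and with the series covariate, and those in Ami50 became 1 with these and with no filter. Total counts alone moved the median over all genes to between 0.141 and 0.199 in the stage comparisons and to -0.158 in Ami50 against MMI16. In the interactions, the higher members under MMI8 became 1 without the farthest libraries (Dhcr7), and those under Ami25 became 1 without the libraries rich in Alb and with only the groups compared.

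Of the alternatives, leaving out each replicate in turn was not applied, since every group held 6 libraries or more. No paired analysis was possible because the groups share no library numbers. Members at a few counts per library limit what can be seen, and the cause of the changes between settings was not tested.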
